A study of Mus musculus with 2 samples.

Results

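The apolipoproteins and the proteins that load lipid onto very low-density lipoprotein (VLDL) were examined in mouse liver as a set of 10 genes: Apob, Mttp, Tm6sf2, Pla2g12b, Apoa1, Apoa4, Apoa5, Apoc3, Apoe and Creb3l3. They were taken for their roles in making these particles, and with earlier results of these data known. Every probe set that the array annotation assigns to 1 of them was taken. This gave 16 of the 45037 probe sets on the array and 10 of the 18193 named genes. All 16 probe sets were measured, with a signal above 76.4 in both genotypes, the median of all signals and the level below which signals were held. Among these genes only Apoa4 was at least 1.5-fold apart between the genotypes, with a signal 1.73-fold and 1.74-fold higher in the liver lacking Lpcat3 by its 2 probe sets. Apob came next at 1.25-fold higher by its brighter probe set, and the other 8 genes had brightest-probe-set log2 ratios between -0.08 and 0.19. Over all 12084 measured genes, 4.0% were at least 1.5-fold higher by brightest probe set and 3.14% lower.

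Liver RNA was compared between Flox/Flox mice (Lpcat3fl/fl) and L-Lpcat3 KO mice (Lpcat3fl/fl with Albumin-Cre). Both groups were males of 12 weeks on chow, sampled after a 6 hr fast, so both carried the floxed allele. RNA of 5 mice was pooled for each genotype and hybridised to 1 Affymetrix expression array, which gives 2 arrays, no replicate, and no test, error or p-value for any difference given here. The albumin promoter drives Cre in hepatocytes, so liver cells that do not express Cre likely kept the floxed gene. Deletion in each cell type was not measured here. Lpcat3, the phospholipid acyltransferase deleted in the KO, read 3310 in the Flox/Flox pool and 1305 in the KO pool, a log2 ratio of -1.34, and where its probe set lies relative to the deleted part was not tested. Hepatocyte markers were bright in both pools, with 8 of 10 measured, none at least 1.5-fold apart and a median log2 ratio of -0.04. Albumin itself read 37859 and 39856. All signals are MAS5 signals on a linear scale of arbitrary units, and log2 ratios are L-Lpcat3 KO over Flox/Flox throughout.

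VLDL is built in the endoplasmic reticulum of the hepatocyte around 1 molecule of apolipoprotein B, which needs lipid while it is being made and is degraded when lipid is short. The microsomal triglyceride transfer protein, encoded by Mttp, supplies the first lipid, and further lipid is added before the particle leaves through the Golgi. The smaller apolipoproteins exchange between particles at the surface and set how lipases and receptors handle them once they are secreted. Lpcat3 puts polyunsaturated fatty acids such as arachidonate into phospholipids of the membrane in which this assembly takes place, and the arrays address whether its loss came with other transcript levels of the assembly genes.

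Apoa1, Apoc3, Apoa4 and Apoa5 lie side by side in the genome, and the only member to pass 1.5-fold sat within this cluster, so the sequences just upstream of its genes are shown first. The 250 bases before the start are given for the 3 genes of the cluster for which a window was at hand, from RefSeq, build GRCm38.p6, plus strand, 5′ to 3′, at chr9:46228380-46228629 for Apoa1, chr9:46240594-46240843 for Apoa4 and chr9:46268358-46268607 for Apoa5. Capitals mark TATAAA and CCACG on either strand, which overlap in Apoa5 as CCACGTGG.
Apoa1: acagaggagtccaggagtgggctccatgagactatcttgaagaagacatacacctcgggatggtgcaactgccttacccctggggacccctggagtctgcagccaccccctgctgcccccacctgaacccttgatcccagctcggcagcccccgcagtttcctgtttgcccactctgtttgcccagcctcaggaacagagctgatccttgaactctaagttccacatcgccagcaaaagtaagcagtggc
Apoa4: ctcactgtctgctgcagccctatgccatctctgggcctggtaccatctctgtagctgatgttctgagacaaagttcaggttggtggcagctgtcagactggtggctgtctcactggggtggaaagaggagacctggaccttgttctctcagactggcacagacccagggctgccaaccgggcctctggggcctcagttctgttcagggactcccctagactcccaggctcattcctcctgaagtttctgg
Apoa5: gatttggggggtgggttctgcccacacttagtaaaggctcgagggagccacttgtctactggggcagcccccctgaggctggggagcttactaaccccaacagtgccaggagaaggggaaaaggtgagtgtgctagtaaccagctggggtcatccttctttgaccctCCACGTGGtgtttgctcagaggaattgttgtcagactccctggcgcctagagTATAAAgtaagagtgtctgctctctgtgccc

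Windows of 300 bases, from 250 before to 50 after a start, were at hand for 8 of the 10 genes, in 12 windows, and for 32851 starts across the genome. Letters of 6 motifs were searched on both strands: TATAAA (the TATA box), CCAAT (the CCAAT box), AGGTCA (the core bound by many nuclear receptors), CAAAGTCCA (a site for HNF4), TGACG (part of the cyclic AMP response element) and CCACG (part of the endoplasmic reticulum stress element). None of the 6 was in the windows of Apoa1 or Apoa4. CCACG was in 5 of the 12 windows, of Mttp, Apoa5 (both windows, which overlap), Creb3l3 and Pla2g12b, and in 32.8% of all windows. TGACG was in 2 of the 12, of Mttp and Creb3l3, against 20.8% of all. TATAAA was in 4 of the 12, of Apob, Apoa5 (both) and Apoe (window 2 of 3), against 13.6%. In Apoa5 it began at position -31 from the start of the window shown above and at -56 from a second listed start. CCAAT and AGGTCA were each in 1 of the 12, of Creb3l3, against 37.4% and 16.3% of all windows. All Creb3l3 matches were in window 1 of 2. CAAAGTCCA was in no member's window and in 0.475% of all. These are matches of letters in a short window and say nothing of which factors bind there.

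Apob encodes the structural protein of VLDL and had 2 probe sets that differed in brightness and in ratio. The brighter, 1455593_at, read 14908 in the Flox/Flox pool and 18574 in the KO pool, a log2 ratio of 0.32. The dimmer, 1457554_at, read 308 and 309, a log2 ratio of 0.00. One probe set thus read higher in the KO pool, and the other was almost level. Their log2 ratios lay 0.31 apart, and 49.0% of the 4495 genes with several probe sets above the floor on both arrays had a wider spread. That share pools genes that differ in their number of probe sets and in signal.

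Mttp, whose product transfers the first lipid to apoB, likewise had 2 probe sets. Signals of 1419400_at were 7361 in the Flox/Flox pool and 8384 in the KO pool, a log2 ratio of 0.19. Those of 1419399_at were 3244 and 3313, a log2 ratio of 0.03. Both were slightly higher in the KO pool and neither neared 1.5-fold.

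Tm6sf2 encodes a membrane protein of the early secretory pathway that promotes the later, bulk lipidation of VLDL. It was the dimmest member by brightest probe set, with 769 in the Flox/Flox pool and 734 in the KO pool, a log2 ratio of -0.07. Pla2g12b encodes a relative of the secreted phospholipases A2 that helps load lipid onto apoB in the endoplasmic reticulum. It read 3423 in the Flox/Flox pool and 3300 in the KO pool, a log2 ratio of -0.05. Both ratios lay slightly below 0, and among all probe sets with mean signals from 387 to 5000 the SD of log2 ratios was 0.237.

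Apoa4 encodes an exchangeable apolipoprotein made by liver and, above all, intestine, which is carried on newly secreted triglyceride-rich particles and on high-density lipoprotein (HDL). Its probe set 1436504_x_at read 3031 in the Flox/Flox pool and 5241 in the KO pool, a log2 ratio of 0.79. Its other probe set, 1417761_at, read 2538 and 4409, a log2 ratio of 0.80. Both were higher in the KO pool by nearly the same factor, and their log2 ratios differed by 0.006. This was a smaller spread than in 98.9% of the genes with several such probe sets. Those genes had 2 or more probe sets, at any signal above the floor, so the share is no measure of precision. Whether the 2 probe sets share probes was not tested. By its ratio Apoa4 ranked 194 from the top among 12084 measured genes.

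Among the 4495 genes with several probe sets above the floor on both arrays, 82 were at least 1.5-fold higher by the brightest one and 14 (0.311% of the 4495) by all of them. Apoa4 was among the 14, with Cd36, Dntt, Slc31a2, Vnn1, Txnip, Slc25a30, Sox3, Pctp, Pltp, Peg3, Bach2, Cdc25a and Slc19a1. In the same set of genes 7 were at least 1.5-fold lower by all probe sets. At signals like those of Apoa4, between 387 and 5000, 110 of 9474 probe sets (1.16%) passed 1.5-fold upward and 113 (1.19%) downward.

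Enterocyte markers were read beside Apoa4, since intestine is its other main source. Of 8 listed markers 7 had a probe set and 3 were measured. Vil1 (13.1 in the Flox/Flox pool and 11.7 in the KO pool), Lct (12.9 and 25.6), Cdx1 (3.85 and 4.02) and Slc5a1 (17.1 and 30.8) lay below the floor of 76.4 in both pools. The 3 measured markers went different ways. Fabp2, the intestinal fatty acid-binding protein, which hepatocytes can also express, read 4087 and 7372, a log2 ratio of 0.85. Alpi, an intestinal alkaline phosphatase, read 109 and 48.3 (-0.51), and Cdx2, an intestinal transcription factor, read 54.2 and 81.8 (0.10), each below the floor in 1 pool. The summed signal of the list, 4296 in the Flox/Flox pool and 7574 in the KO pool, was thus mostly Fabp2.

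Apoa1 encodes the main protein of HDL and was the brightest member. It was represented by 4 probe sets, all of them among the 30 brightest rows of each array. Their signals in Flox/Flox and L-Lpcat3 KO were 54827 and 52987 for 1419232_a_at, 44615 and 46480 for 1455201_x_at, 44769 and 44971 for 1438840_x_at, and 41863 and 43942 for 1419233_x_at. As deposited, 1 was lower in the KO pool and 3 were higher, with log2 ratios from -0.05 to 0.07 and a spread of 0.12, though 1419232_a_at turned positive after quantile normalization and 1438840_x_at turned negative after median centring. The ending _x_at marks probe sets with probes that may also match other sequences.

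Apoa5, Apoc3 and Apoe encode apolipoproteins that act on the clearance of triglyceride-rich particles and had 1 probe set each. Apoa5, whose product promotes hydrolysis by lipoprotein lipase, read 33643 in the Flox/Flox pool and 32284 in the KO pool, a log2 ratio of -0.06. Apoc3, whose product slows that hydrolysis and the uptake of remnants, read 36534 and 36205, a log2 ratio of -0.01. Apoe, which encodes the ligand by which remnants bind hepatic receptors, read 42340 and 40054, a log2 ratio of -0.08. All 3 were a little lower in the KO pool as deposited, beside a median of -0.04 over all probe sets above 20000. After quantile normalization Apoa5 lay at -0.0004, Apoe at -0.015 and Apoc3 at 0.03. After loess Apoa5 lay at -0.02, Apoe at -0.04 and Apoc3 at 0.03. Macrophages also make Apoe, and all 11 measured markers of Kupffer cells and macrophages lay below 0, with log2 ratios from -0.54 (Timd4) to -0.06 (Clec4f), a median of -0.30 and a summed signal of 12453 in the Flox/Flox pool and 10754 in the KO pool. Their part in the Apoe value was not tested, and in bulk liver fewer cells of a type and less RNA per cell cannot be told apart.

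Creb3l3 encodes CREBH, a transcription factor held in the membrane of the endoplasmic reticulum and released by cleavage in the Golgi, which acts on liver apolipoprotein genes in fasting. Its probe set read 8243 in the Flox/Flox pool and 8927 in the KO pool, a log2 ratio of 0.11. Array signals follow transcript, so cleavage of the protein was not measured here.

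**Figure D1:**
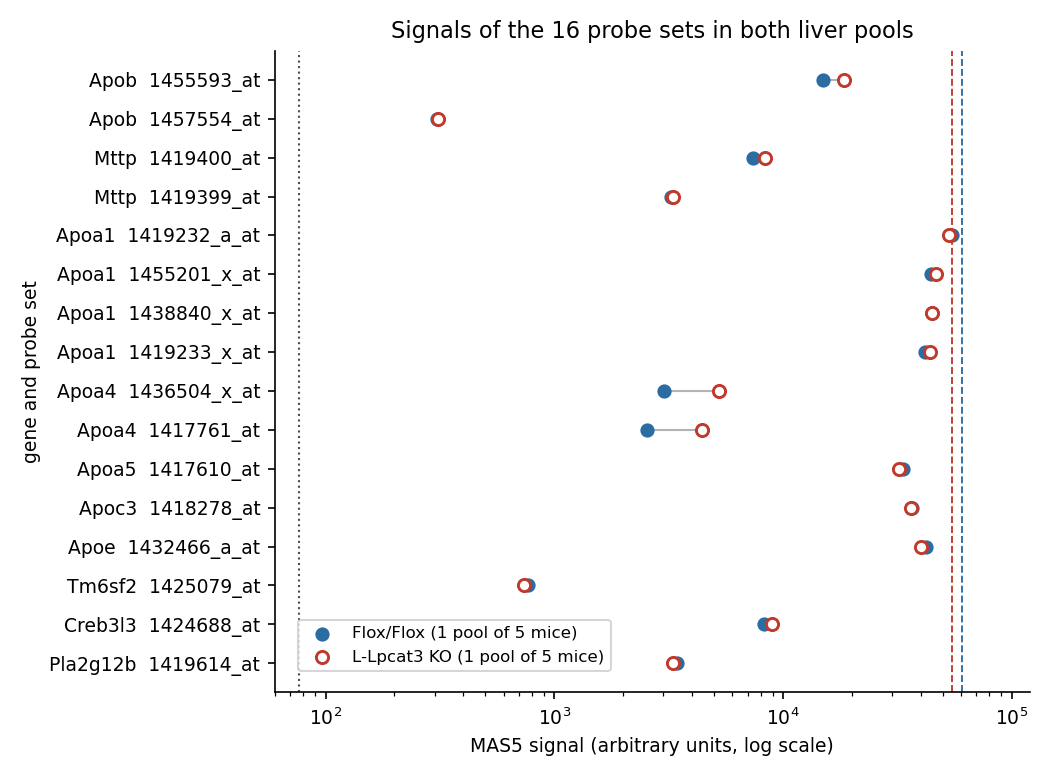
MAS5 signal in arbitrary units (log axis) of the 16 probe sets of the 10 genes, with the Flox/Flox pool as filled points and the L-Lpcat3 KO pool as open points. The dotted line is the floor of 76.4 and the dashed lines are the highest signal of each array. The points of both Apoa4 probe sets are clearly apart, and those of Apoa1, Apoa5, Apoc3 and Apoe lie near the top of the range.

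Counted over the set, 2 of 16 probe sets, both of Apoa4, were at least 1.5-fold higher in L-Lpcat3 KO, while 4.79% of all 24183 measured probe sets were. None of the 16 was at least 1.5-fold lower, against 3.71% of all, and none was 2-fold apart in either direction, against 1.20%. By brightest probe set 1 of 10 genes was at least 1.5-fold higher, against 4.0% of 12084 measured genes, and 0 of 10 lower, against 3.14%. The share of all probe sets at least 1.5-fold higher depended on the floor: it was 0.857% with the floor at 387, where 2 of 15 measured member probe sets passed, and 19.1% with no floor. Of the 16 probe sets 10 lay above 0 and 6 below, with a median log2 ratio of 0.02, beside 0.01 over all measured probe sets. The median over the 10 genes was -0.03 and that over all measured genes was 0.00.

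The spread of ratios depended on signal, and most members sat where it was narrow. The SD of log2 ratios over all probe sets was 0.418 at mean signals from 76.4 to 387, 0.237 from 387 to 5000, 0.166 from 5000 to 20000 and 0.116 above 20000. The shares at least 1.5-fold apart in either direction were 15.2%, 2.35%, 0.564% and 0.651% in the same order. The dimmer Apob probe set was the only member in the lowest range, and 5 member probe sets lay in the next. In the range from 5000 to 20000 there were 3: the brighter Apob, the brighter Mttp and Creb3l3. Only 2 of 1419 probe sets in that range were at least 1.5-fold higher. These SDs measure the spread over probe sets and are no error of replicates.

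**Figure D2:**
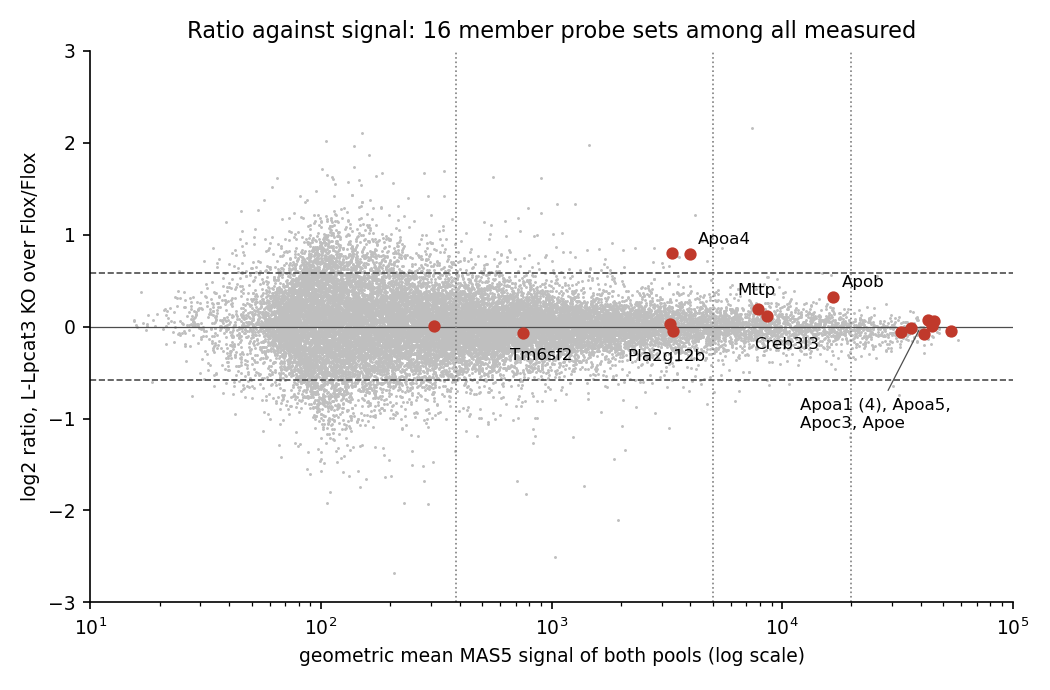
Log2 ratio (KO over Flox/Flox) plotted by geometric mean signal of the pools (log axis), for all measured probe sets in grey and the 16 member probe sets in red. Dashed lines mark 1.5-fold and dotted lines the limits of the signal ranges at 387, 5000 and 20000. Both Apoa4 points lie above the 1.5-fold line, and the 7 brightest members lie at the right, where all ratios are narrow.

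Above 20000 lay 7 of the 16 member probe sets, those of Apoa1, Apoa5, Apoc3 and Apoe, among 307 on the array. Their ranks among all rows were 3 to 82 on the Flox/Flox array and 2 to 83 on the KO array. Relative to the highest signal of each array, 60906 and 55070, the range was 55.2% (Apoa5) to 90.0% (Apoa1) on the Flox/Flox array and 58.6% to 96.2% on the KO array. Of the 307 probe sets none passed 1.5-fold upward and 2 passed it downward, and the largest member log2 ratio there was 0.08 in size. Whether these probes still responded to more RNA at such signals was not tested, so ratios near 0 for these 4 genes do not show equal amounts of RNA. Signals of different probe sets are not compared as RNA amounts, since each depends on its own probes.

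Within the cluster on the chromosome, the high ratio was that of Apoa4 alone. In genome order Apoa1 (-0.05), Apoc3 (-0.01), Apoa4 (0.79) and Apoa5 (-0.06) stood between Sik3 on one side and Zpr1 on the other. Apoa1, Apoc3 and Apoa5 read above 20000, where no probe set passed 1.5-fold upward, and Apoa4 read lower, at 3031 and 5241. The part of signal range in this contrast was not tested. The 7 listed neighbours were all measured and none was 1.5-fold apart, with log2 ratios from -0.32 for Bud13 to 0.15 for Pcsk7 and a median of 0.01. The flanking genes of Apoe were also all within 1.5-fold, at a median of -0.03. Of all measured genes only 4.0% were at least 1.5-fold higher and 3.14% lower, so such counts in short lists are not particular to these neighbourhoods. Among the flanking genes of Apoe, Apoc1, which encodes a small exchangeable apolipoprotein, read 29774 and 27906 (-0.09), and Apoc4 read 23648 and 23124 (-0.03).

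**Figure D3:**
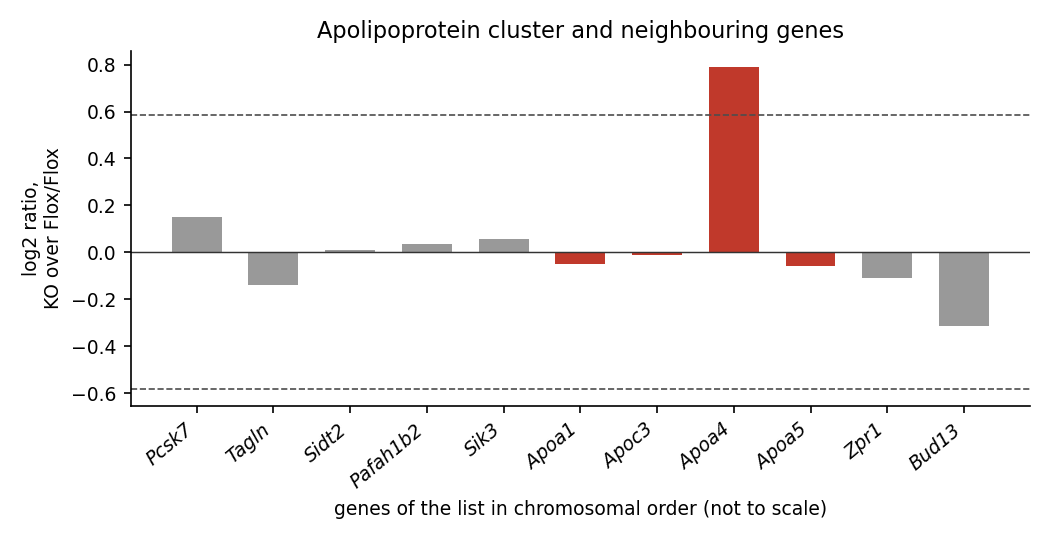
Log2 ratio, KO over Flox/Flox, by brightest probe set for the 4 clustered apolipoprotein genes (red) and 7 neighbouring genes (grey) in chromosomal order, not to scale. Dashed lines mark 1.5-fold. The bar of Apoa4 reaches 0.79 and the others lie between -0.32 and 0.15. Signals of Apoa1, Apoc3 and Apoa5 lie above 20000 and those of Apoa4 below it.

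The remaining genes of VLDL and apolipoprotein biology were read from 2 lists, other apolipoproteins and partners in assembly and secretion, with 36 of 39 genes measured. Of these 17 lay above 0 and 19 below, at a median log2 ratio of -0.03. Within 1.5-fold were 34, while 2 were higher, beside 4.0% of all measured genes, and none was lower, beside 3.14%. Among 9 other apolipoproteins none was 1.5-fold apart. Apoa2, the second protein of HDL, read 42255 in the Flox/Flox pool and 43744 in the KO pool (0.05), and Apoh read 37195 and 39870 (0.10). The extremes were Apom, the HDL carrier of sphingosine 1-phosphate, at -0.27 (18010 and 14979), with -0.21 by its second probe set, and Apoc2, the activator of lipoprotein lipase, at 0.17 (12024 and 13492).

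Among 27 partners, Pltp and A1cf were at least 1.5-fold higher, beside 4.0% of all measured genes, and none was lower, beside 3.14%. Pltp, which transfers phospholipid between lipoproteins, read 2755 in the Flox/Flox pool and 6409 in the KO pool, 2.33-fold higher, and 463 and 750 by its dimmer probe set. A1cf, a partner of the enzyme that edits the Apob message, read 109 and 167 (0.62), in the range where ratios spread most. It was no longer past 1.5-fold after quantile normalization (0.58) or with a pseudocount in place of the floor (0.40), and it was not measured with the floor at 387. Vti1a, a SNARE protein of vesicle transport, lay just inside the limit at 0.58 by its brightest probe set, while its next probe set read -0.28. The brightest partners were P4hb, the small subunit of the Mttp complex and a protein disulphide isomerase, at 24375 and 23638 (-0.04), and Sar1b, the GTPase of the vesicles that carry the particles out of the endoplasmic reticulum, at 20238 and 21353 (0.08). Dgat2, which makes triglyceride, read 13151 and 13419 (0.03). The lowest ratio was that of Erlin1 at -0.41.

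Of 28 measured transcription regulators of these genes, 1 was at least 1.5-fold higher, beside 4.0% of all measured genes, and 1 lower, beside 3.14%. Their median log2 ratio was 0.05. Onecut1, which encodes hepatocyte nuclear factor 6, read 247 in the Flox/Flox pool and 433 in the KO pool (0.81), with 0.33 by its other probe set. Nr1d1, a repressor of the circadian clock, read 207 and 48.6, below the floor in L-Lpcat3 KO and so at least 2.71-fold lower. It was measured through the Flox/Flox pool alone, so its ratio could only be negative. The mean signals of Nr1d1 and Onecut1 lay in the lowest range, up to 387. There 8.68% of all probe sets were at least 1.5-fold higher and 6.49% lower. The brightest regulators were Hnf4a, a main activator of liver apolipoprotein genes, at 18389 and 17086 (-0.11), and Cebpb at 17247 and 16056 (-0.10). Ppara, the fatty acid receptor active in fasting, lay at 0.08. Mbtps1 and Mbtps2, the proteases that release CREBH, lay at 0.14 and -0.24.

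Of 11 genes known as CREBH targets, 3 were at least 1.5-fold higher, beside 4.0% of all measured genes, and none was lower, beside 3.14%. Of the 11, 6 lay below 0, and the median log2 ratio was -0.05. Beside Apoa4 these were Fgf21, a hormone of fasting, which read 53.2 in the Flox/Flox pool and 236 in the KO pool, at least 3.09-fold higher, and Cidec, a lipid droplet protein, at 49.1 and 164, at least 2.15-fold higher. Both lay below the floor in Flox/Flox, so these folds are bounds against 76.4, and they were measured through the KO pool alone. At mean signals from 76.4 to 387, where both lie, 8.68% of all probe sets were at least 1.5-fold higher. The brightest targets were Apoa1, given above, and Hamp, which encodes the iron hormone hepcidin, at 42045 and 39964 (-0.07). The targets Apoc2 and G6pc each lay at 0.17, Pck1 at -0.09, Crp at -0.15 and Apcs at -0.26. Genes named in these lists beyond those 1.5-fold apart and the 2 brightest were picked after their values were seen.

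**Figure D4:**
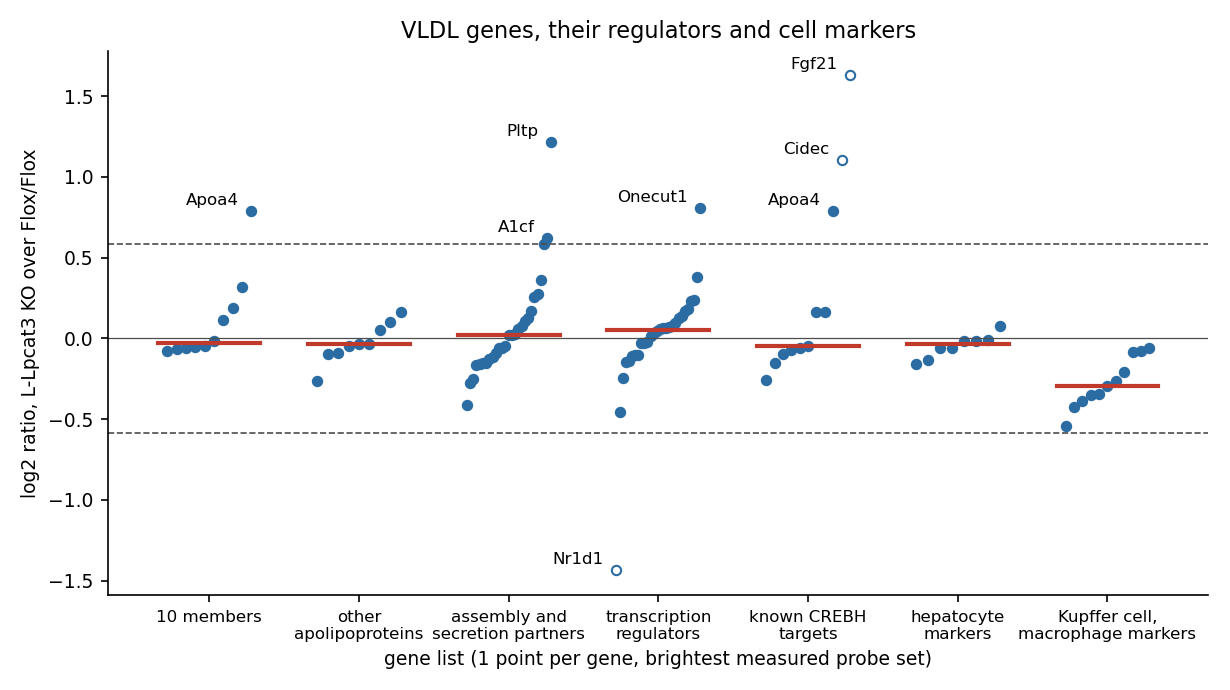
Log2 ratio, KO over Flox/Flox, for each measured gene (1 point per gene, brightest probe set) of 7 gene lists, sorted within a list, with red bars at the list medians and dashed lines at 1.5-fold. Open points are genes below the floor in 1 pool, whose ratios are bounds. Most points lie within 1.5-fold, and every Kupffer cell and macrophage marker lies below 0.

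Markers of the other cell types were mixed. Median log2 ratios were 0.02 for 5 measured periportal markers, -0.08 for 7 pericentral, 0.21 for 7 endothelial and 0.03 for 5 stellate markers. For 3 bile duct markers the median was 0.40, with Epcam higher (58.4 and 128) and Sox9 lower (162 and 77.6) past 1.5-fold. Epcam and Krt7 (57.7 and 101) lay below the floor in Flox/Flox and were measured through the KO pool alone. Their ratios could thus only be positive, and the median of 0.40 is that of Krt7. Medians were -0.12 for 5 neutrophil markers, each above the floor in only 1 pool, -0.35 for 2 pancreatic acinar markers and -0.08 for 7 reference genes. The 1 measured lymphocyte marker, Ms4a1, lay at 0.17 (53.7 and 85.8) and was also below the floor in Flox/Flox. None of the periportal, pericentral, endothelial, pancreatic or reference genes was 1.5-fold apart, the stellate marker Col3a1 was lower (1758 and 1151) and the neutrophil marker Csf3r higher (29.7 and 120, below the floor in Flox/Flox). Of all measured genes 4.0% were at least 1.5-fold higher and 3.14% lower.

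How the arrays were scaled to each other mattered for the sign of the smallest ratios and not for Apoa4. Under median centring, quantile normalization and loess member ratios moved by at most 0.0655, and both Apoa4 probe sets stayed at or above 0.78. Ratios changed sign under some scaling for the brightest and 1 other Apoa1 probe set, the dimmer Apob and Apoc3, and the size of each was at most 0.06 under every scaling.

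**Figure D5:**
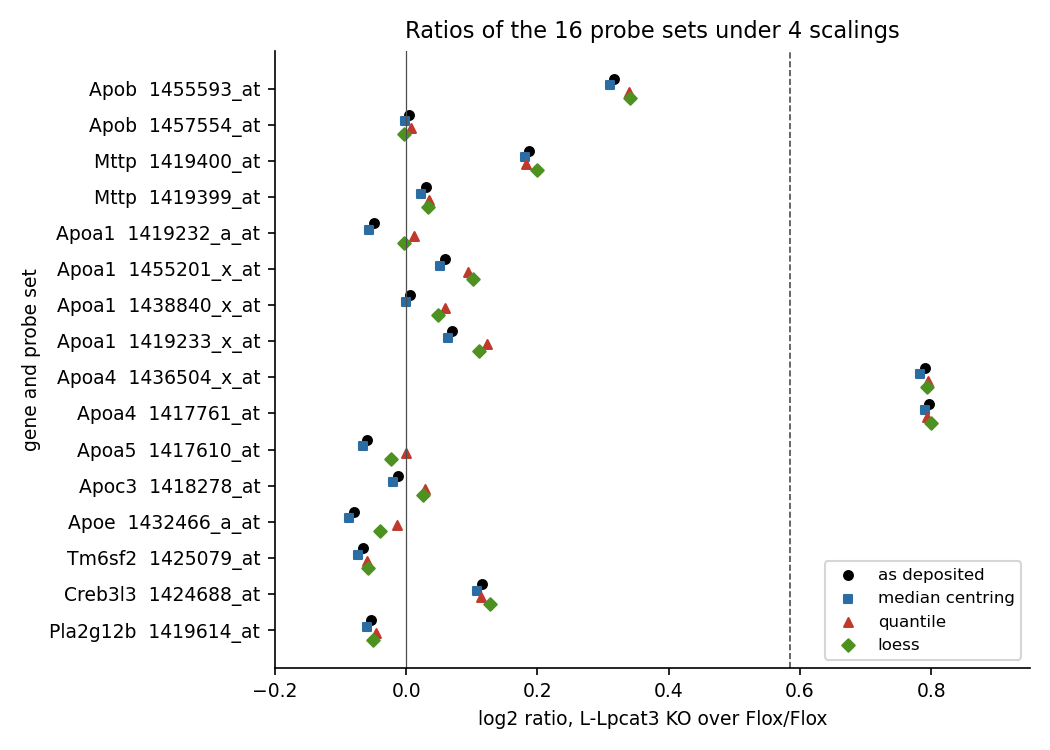
Log2 ratio, KO over Flox/Flox, for the 16 probe sets as deposited and after median centring, quantile normalization and loess. The dashed line marks 1.5-fold. The 4 points of each probe set lie close together, and only both Apoa4 probe sets lie past the line.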

How the data were processed

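Liver RNA of 1 Flox/Flox pool and 1 L-Lpcat3 KO pool was read on 1 array each, and groups were taken from the labels. The deposited signals are intensities on a linear scale, which the authors made with MAS5 and scaled so that the mean, without the 2% at either end, was 500.0 on both arrays. MAS5 subtracts mismatch signal and scales by a constant, so a bend between arrays at high signal is not removed. No source used here gives the MAS5 version.

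From these, 64 control rows were removed, signals below the median of all signals (76.4) were set to it, and log2 ratios were taken with Python 3.11.15, numpy 2.4.6 and pandas 2.3.3 (loess with statsmodels 0.14.6). A probe set was measured if above the floor on at least 1 array, and a gene was read by its brightest measured probe set. Probe sets were named from the platform annotation: 34945 carried 1 gene, 932 several, which were not used, and 9160 were unnamed here. Each genotype had 1 array here, which limits precision, and the code was tested on simulated data. The text names all members and, from other lists (apolipoproteins, assembly partners, regulators, CREBH targets, neighbours, markers of liver and other cells), genes 1.5-fold apart (up to 4) and the 2 brightest, but marker and neighbour lists are given mainly by counts and medians, with most of their brightest genes not named. Members and lists were chosen with earlier results of these data known. Alternatives were 3 scalings, 3 other floors, a pseudocount, unique probe sets and 2 gene summaries.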

Additional observations from a re-analysis of the deposited data

How the results depend on the processing

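No paired analysis was possible because each genotype had 1 array, and leaving out a replicate was not possible for the same reason. The number of member genes at least 1.5-fold apart stayed at 1 under all 10 alternatives, and no member probe set was at least 1.5-fold lower under any that was run on probe sets. The log2 ratio of Apoa4 ran from 0.775 to 0.797 and the median over member genes from -0.038 to 0.051. Member probe sets at least 1.5-fold higher were 1 in place of 2 without probe sets ending in _s_at, _x_at or _a_at, which leaves 10 probe sets and 8 genes, since Apoa1 and Apoe have no other. Pathway genes at least 1.5-fold apart were 1 in place of 2 with the floor at the 75th percentile (387), with a pseudocount and with quantile normalization; the call lost was A1cf, and Pltp kept its own under all 10 alternatives. By the second brightest probe set the log2 ratio was 0.005 for Apob, 0.03 for Mttp and 0.06 for Apoa1. The share of all probe sets at least 1.5-fold higher, 4.79%, was 0.857% under this higher floor and 19.1% with no floor. The cause was not tested.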
